A study of Mus musculus with 24 samples.

Results

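The genes that mark the precursors of oligodendrocytes and the cells that are turning into oligodendrocytes were followed in the hippocampus of mice that lost *Tsc1* in adulthood. The 10 genes are *Pdgfra*, *Cspg4*, *Gpr17*, *Enpp6*, *Bmp4*, *Sox10*, *Olig1*, *Olig2*, *Bcas1* and *Myrf*, chosen by name from the 55385 gene identifiers of the count files, of which 44657 had at least 1 count. RNA was taken from 24 male and female adult mice, 4 in each of 6 groups. All animals carried floxed *Tsc1* alleles (*Tsc1* fl/fl) and received tamoxifen for 4 days. Days are counted from the start of tamoxifen. Tsc1-Cre- controls carried no Cre and were sampled on day 8. Tsc1-Cre+ mice also carried a *Camk2a*-CreERT2 transgene, which is active in CAMK2A-positive neurons, and were sampled on day 4, 6, 8 or 13. Tsc1-Cre+-Rap 4 mice received rapamycin, an inhibitor of the mTOR kinase, at 10 mg/kg from day 4 and were sampled on day 13. No rapamycin-treated group without Cre is among the samples used here, and the controls were sampled on day 8, so under rapamycin the drug, the deletion and the day cannot be told apart. Mice of this line develop spontaneous seizures after the deletion, and the study asked how expression changes on the way there and under rapamycin.

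Oligodendrocyte precursors persist in the adult brain, divide, and give rise to new oligodendrocytes, which wrap axons in myelin. A precursor senses platelet-derived growth factor through PDGFRA and carries the proteoglycan NG2, the product of *Cspg4*. On the way to an oligodendrocyte it passes a committed stage, in which the receptor GPR17 and the secreted factor BMP4 are made, and a newly forming stage, marked by ENPP6, a choline phosphodiesterase, and by BCAS1. The transcription factors OLIG1, OLIG2 and SOX10 are present along the whole lineage, and MYRF switches on the myelin genes. The deletion is directed at CAMK2A-positive neurons and not at this lineage.

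*Enpp6* was called lower in 3 comparisons, and *Gpr17*, *Bmp4* and *Sox10* in 2 each. In GENCODE M21 on GRCm38, *Bmp4* lies at chr14:46383520-46390669 (minus strand), *Enpp6* at chr8:46986887-47096762 (plus strand), *Sox10* at chr15:79154908-79165240 (minus strand) and *Bcas1* at chr2:170346991-170427845 (minus strand), and like *Gpr17* they are protein coding. The upstream sequence of *Enpp6* and *Bmp4* is shown beside that of *Olig2*, a gene of the same lineage that was not called in any comparison, to set genes that fell against a gene that was not called. RefSeq promoters were found for 5 of the 10 members (*Pdgfra*, *Cspg4*, *Enpp6*, *Bmp4* and *Olig2*). The 250 bases before the start are printed 5′ to 3′ on the strand of the gene, in build GRCm38.p6, and capitals mark a match to the SOX core motif ACAATG on either strand. They lie at chr8:46986637-46986886 (plus strand) for *Enpp6*, chr14:46390670-46390919 (minus strand) for *Bmp4* and chr16:91225300-91225549 (plus strand) for *Olig2*. The start is that of the RefSeq promoter. In GENCODE M21 *Olig2* starts at chr16:91225457 (plus strand), inside the printed stretch, so its last part, with the marked motif, lies within the gene there.
Enpp6: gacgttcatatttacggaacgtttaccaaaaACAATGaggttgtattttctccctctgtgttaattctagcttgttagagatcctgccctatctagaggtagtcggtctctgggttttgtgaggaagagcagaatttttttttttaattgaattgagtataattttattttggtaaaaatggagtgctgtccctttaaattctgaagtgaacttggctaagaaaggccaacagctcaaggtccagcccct
Bmp4: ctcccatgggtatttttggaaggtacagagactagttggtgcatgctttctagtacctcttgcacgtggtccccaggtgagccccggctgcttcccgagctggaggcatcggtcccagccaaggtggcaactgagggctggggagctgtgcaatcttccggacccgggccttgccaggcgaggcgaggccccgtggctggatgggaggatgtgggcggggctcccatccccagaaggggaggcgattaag
Olig2: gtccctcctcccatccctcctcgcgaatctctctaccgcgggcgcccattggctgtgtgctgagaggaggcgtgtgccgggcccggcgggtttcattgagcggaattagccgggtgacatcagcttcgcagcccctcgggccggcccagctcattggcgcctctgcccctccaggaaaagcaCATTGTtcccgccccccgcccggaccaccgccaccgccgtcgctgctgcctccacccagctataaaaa
The searched letters were the E-boxes CAGCTG and CAGATG, which basic helix-loop-helix factors such as the OLIG proteins can bind, and the SOX cores ACAAAG and ACAATG, on both strands. In the 250 bases before the start, *Enpp6* held ACAATG at position -219 and *Olig2* held the same motif on the other strand at position -68, counted from the start, and *Bmp4* held none of the motifs. *Pdgfra* held the E-box CAGATG, and *Cspg4* held none. In promoter windows of the same kind, which run from 250 bases before to 50 bases after the start, 12.57% of 32851 held ACAATG and 28.6% held either SOX core. An E-box of either kind was in 30.57% of them. The GC content was 38.4% in *Enpp6*, 63.2% in *Bmp4* and 66.8% in *Olig2*. These matches are letters in a window and were not tested against expression.

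Levels are given as CPM, the counts of a gene relative to the library total, scaled between mice with TMM factors, a normalization that assumes that most genes do not change. Library totals lay between 28208561 and 126435936 counts, with the widest spread on day 13. *Tsc1* itself was at 103 to 109 CPM in the controls and at 57.4 to 81.7 CPM in the 20 Cre-positive mice, with no overlap. All 10 members were measured in every mouse. The lowest count was 13, for *Bmp4* in Tsc1-Cre+-Rap 4 mouse B. Per kilobase of exon, *Bcas1* was the most abundant member in controls at 28.9 ± 5.31 CPM per kilobase (SD, n = 4 mice). *Olig1* followed at 18.1 ± 2.5, *Sox10* at 9.2 ± 1.94, *Pdgfra* at 7.35 ± 0.246 and *Gpr17* at 6.97 ± 0.304 CPM per kilobase. Next came *Olig2* at 5.65 ± 0.659, *Myrf* at 5.36 ± 1.08, *Cspg4* at 3.13 ± 0.107, *Enpp6* at 2.08 ± 0.474 and *Bmp4* at 0.597 ± 0.185 CPM per kilobase. In this order the control mice overlapped between *Sox10* and *Pdgfra*, between *Pdgfra* and *Gpr17*, and between *Olig2* and *Myrf*, while all other neighbours were apart. Exons of *Gpr17* overlap those of *Lims2* on the opposite strand, which had a mean of 373 counts per mouse, and exons of *Bcas1* overlap the antisense genes *Bcas1os2* (mean 198 counts) and *Bcas1os1* (mean 62.8 counts). The strand setting of the counting is not given in the sources used here, so the reads of these pairs may be shared. The plot of CPM by group shows every mouse.

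**Figure D1:**
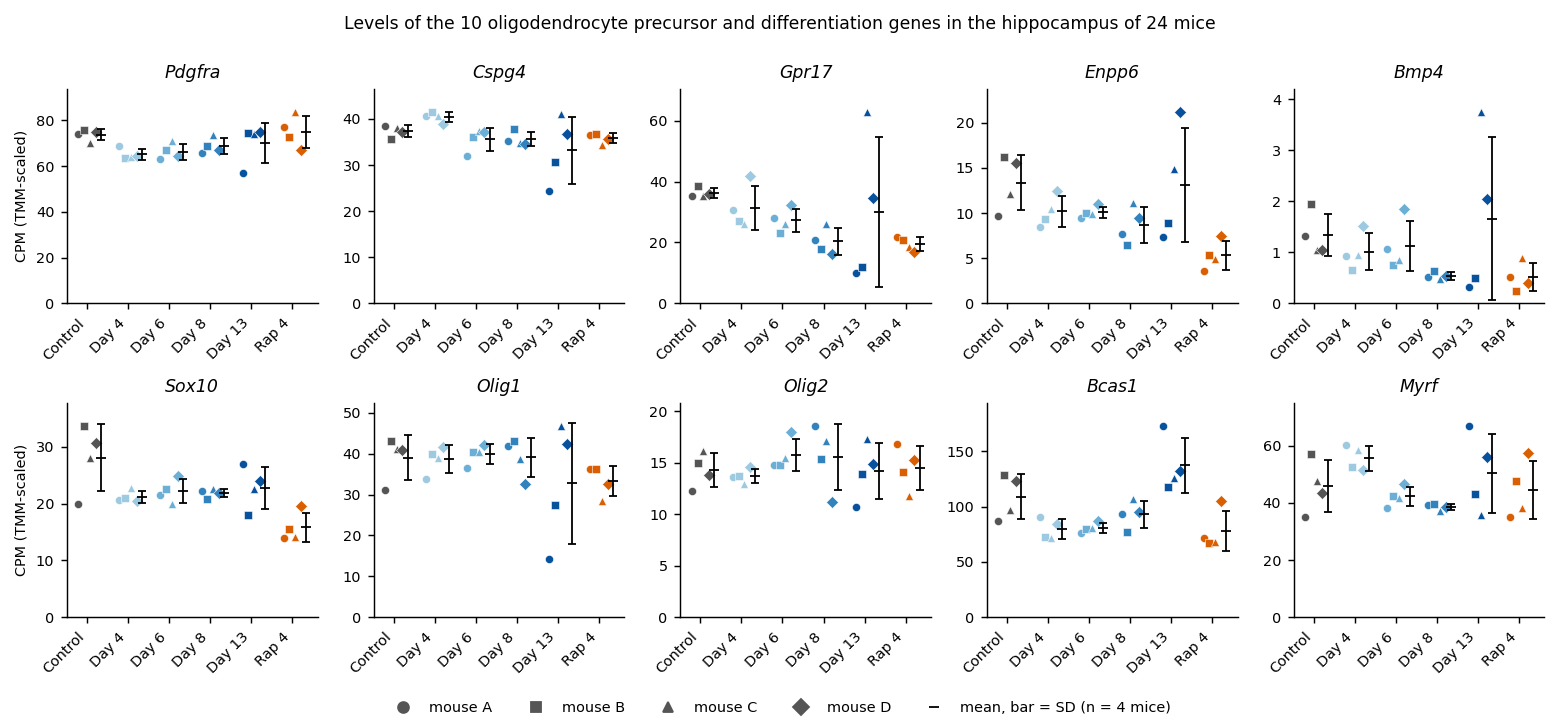
Level of each of the 10 genes in CPM (TMM-scaled, vertical axis from 0) in the 24 mice, by group; each point is a mouse, its shape gives the letter, and the bar is the mean with SD (n = 4 mice). *Gpr17*, *Bmp4* and *Enpp6* lie low on day 8 and under rapamycin, and on day 13 *Gpr17* ranges from 10.0 to 62.8 CPM.

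On day 4 and day 6 no member changed by both criteria of the call, namely an edgeR adjusted p under 0.05 together with a log2 fold change beyond 0.5 in either direction. On day 4 versus control, 0 of 10 members were called, against 0.68% of all genes tested in either direction, and DESeq2 called 0. An unadjusted edgeR p under 0.05 was found for 6 members, against 18.4% of all genes. On day 6 versus control, 0 of 10 were called, against 1.32% of all genes, and 0 by DESeq2. Here 5 members had an unadjusted edgeR p under 0.05, against 24.2% of all genes. A total of 8 of 10 log2 fold changes were negative on each day, with a median of -0.19 on day 4 and -0.22 on day 6. The medians over all genes tested were -0.01 and -0.02. Shifts of this kind were not particular to the members. On days 4 and 6 the medians were -0.24 and -0.34 for mature oligodendrocyte genes, -0.20 and -0.29 for microglia markers and -0.11 and -0.33 for astrocyte markers. Other precursor genes had -0.07 and -0.01, and neuron markers 0.06 and -0.002.

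*Pdgfra*, the receptor of precursors, was at 73.8, 75.9, 70.2 and 74.9 CPM in controls and at 68.7, 63.4, 64.0 and 64.3 CPM on day 4. All day 4 mice lay below all controls, by a small step of -0.18 on the log2 scale (standard error 0.04, edgeR adjusted p = 0.0238), under the fold minimum. On day 6 its log2 fold change was -0.16 (edgeR adjusted p = 0.0223), with mice that overlapped the controls. *Cspg4* stood at 35.7 to 38.5 CPM in controls and at 38.9 to 41.5 CPM on day 4, above all controls, with a log2 fold change of 0.11 that did not pass (edgeR adjusted p = 0.174).

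*Gpr17* was nearly constant among the controls, at 35.3, 38.6, 35.3 and 35.8 CPM. On day 4 it was at 30.5, 26.9, 26.1 and 41.9 CPM, so that 3 mice lay below and mouse D above all controls, and no difference was detected (log2 fold change -0.21, edgeR adjusted p = 0.394). On day 6 it was at 27.9, 23.2, 25.9 and 32.2 CPM, with all mice below the controls. The log2 fold change of -0.42 (standard error 0.08, edgeR adjusted p = 0.0058) was under the fold minimum, and without day 6 mouse D it was -0.51 and called. *Bcas1* had log2 fold changes of -0.45 on day 4 (edgeR adjusted p = 0.0464) and -0.44 on day 6 (edgeR adjusted p = 0.0122), also under the minimum. Its CPM went from 87.4, 129, 96.8 and 123 in controls to 76.1, 80.1, 80.8 and 87.0 on day 6, where all mice lay below the controls.

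The early values of several members rest on control mouse A, which was the lowest control for *Enpp6*, *Sox10*, *Olig1*, *Olig2*, *Bcas1* and *Myrf*. Without it, 3 members were called lower on day 4 (*Enpp6*, *Sox10* and *Bcas1*) and 2 on day 6 (*Enpp6* and *Bcas1*). The share of all genes called without this mouse is not given here. *Bcas1* was also called on day 4 without control C (-0.50) or without day 4 mouse A (-0.52). The same control mouse had the lowest summed level of 18 mature oligodendrocyte genes, 3656 CPM, where the highest control was at 5710 CPM.

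On day 8 *Gpr17*, *Bmp4* and *Enpp6* fell, and the other members were not called. These are a receptor and a secreted factor of committed precursors and an enzyme of newly forming oligodendrocytes. The 3 members called lower of 10 stand against 1.84% of all genes tested that were called lower, and 0 were called higher. The median log2 fold change of the members was -0.25, and that of all genes was -0.03. In hippocampal tissue, fewer cells of the lineage and less RNA per cell cannot be told apart.

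*Gpr17* was at 20.8, 18, 26.2 and 16.3 CPM on day 8, and all mice lay below all controls. It fell by 0.85 on the log2 scale (95% confidence interval -1.12 to -0.58, edgeR adjusted p = 0.00172), to 0.555 of the control level. *Lims2*, which shares exon sequence with it, was also called lower (log2 fold change -0.53), with 7.97 to 9.23 CPM in controls and 5.35 to 6.34 CPM on day 8. The share of reads that the overlapping exons give to each gene was not tested.

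*Bmp4* was the scarcest member, at 1.32, 1.94, 1.05 and 1.05 CPM in controls, or 55 to 116 counts. On day 8 it was at 0.515, 0.64, 0.469 and 0.531 CPM, or 25 to 37 counts, with no overlap. It fell by 1.33 on the log2 scale (95% confidence interval -1.85 to -0.80, edgeR adjusted p = 0.00552). *Enpp6* was at 9.63, 16.2, 12.1 and 15.5 CPM in controls and at 7.73, 6.52, 11.1 and 9.44 CPM on day 8. Its mice overlapped, since day 8 mouse C lay above control A. The fall of 0.63 (95% confidence interval -1.05 to -0.22, edgeR adjusted p = 0.0482) was near the threshold, and 13 of 19 alternative fits did not call it, among them those without control B, C or D or without day 8 mouse A, B or D.

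The mature oligodendrocyte genes moved beside these members on day 8, with 4 of 18 called lower and a summed level of 3587 to 4029 CPM against 3656 to 5710 CPM in controls. None of the 4 called members of that list separated all mice from the controls. With the mean level of the mature list as a covariate, *Gpr17* alone was called. *Bmp4* was then at -1.25 (edgeR adjusted p = 0.0508) and *Enpp6* at -0.25 (edgeR adjusted p = 0.381). In a fit of all 24 mice with a shared spread none of the 3 was called, at -0.83, -1.31 and -0.62 for *Gpr17*, *Bmp4* and *Enpp6* (edgeR adjusted p = 0.125, 0.118 and 0.12). Controls and day 8 mice come from the same 2 series of file-name numbers, and with the series as a block *Gpr17*, *Enpp6* and *Bmp4* were again called. The day 4, day 6, day 13 and rapamycin mice share no series with the controls or with each other. In every other comparison, rapamycin included, group and series therefore cannot be told apart. What the numbers stand for is not given in the sources used here.

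The transcription factors of the lineage were not called on day 8. *Sox10* stood at 20.8 to 22.5 CPM against 19.9 to 33.7 CPM in controls (log2 fold change -0.38, edgeR adjusted p = 0.0794), and it was called without control A. *Olig1* and *Olig2* had intervals around 0, from -0.25 to 0.23 and from -0.20 to 0.42 on the log2 scale. *Myrf*, the switch of the myelin genes, was at 37.2 to 39.5 CPM, a narrow band inside the control range of 35.2 to 57.3 CPM.

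**Figure D2:**
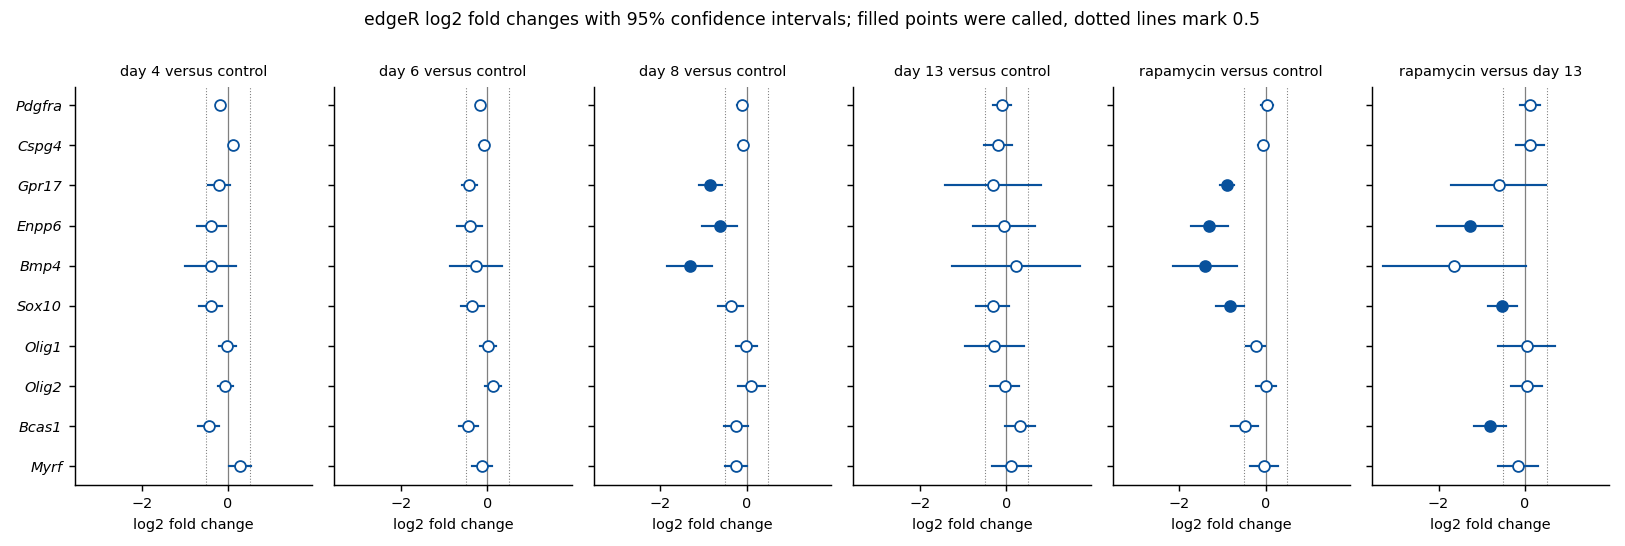
Log2 fold change of each gene (horizontal axis) with its 95% confidence interval in 6 comparisons (panels) of 4 against 4 mice; filled points were called and dotted lines mark 0.5 in each direction. *Gpr17*, *Enpp6* and *Bmp4* are filled on day 8 and under rapamycin against control, and the intervals of *Gpr17* and *Bmp4* on day 13 are wide.

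On day 13 several members parted between mice, and none was called against control. Against control, 0 of 10 members were called in edgeR, where 16.5% of all genes tested were called in either direction, and DESeq2 called 0. An unadjusted edgeR p under 0.05 was found for 0 members, against 40.5% of all genes. *Gpr17* was at 10.0, 12, 62.8 and 34.7 CPM in day 13 mice A to D. Mice A and B were below every other mouse of the 24 and mouse C was the highest of all. *Bmp4* was at 0.323, 0.495, 3.75 and 2.05 CPM, so that mice C and D lay above all controls and mice A and B below. *Enpp6* was at 7.31, 8.91, 14.9 and 21.2 CPM, with mice A and B below all controls and mouse D above.

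*Olig1*, with a coefficient of variation of at most 13.9% in each other group, was at 14.3, 27.5, 46.8 and 42.3 CPM, with mice A and B again below all controls. *Cspg4* was at 24.3, 30.6, 41.1 and 36.8 CPM. *Pdgfra* was at 57.1 CPM in mouse A and at 74.0 to 74.7 CPM in the others, so its split did not follow the same lines. Of the 10 members, day 13 mouse A had 7 below and 2 above all controls, mouse B had 6 below and 0 above, mouse C had 0 below and 5 above, and mouse D had 1 below and 3 above. The control range rests on 4 mice, and the share of all genes outside it was not counted. These counts therefore have no background to be read against.

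The coefficient of variation on day 13 was 82.4% for *Gpr17* and 96.6% for *Bmp4*, and 4.35% and 31% in controls. The 95% confidence interval of the day 13 change ran from -1.41 to 0.81 for *Gpr17* and from -1.26 to 1.70 for *Bmp4*, so for *Gpr17* a change as large as that of day 8 lies inside it. Mice A and B also had the largest libraries of the group, 69971957 and 126435936 counts, against 38423852 in mouse C and 41101425 in mouse D. They share 1 series of file-name numbers, whereas C and D come from 2 others. The part of depth and series in the split was not tested. Thinning all libraries to the smallest total left 0 members called against control, which does not address the split between day 13 mice.

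*Sox10*, *Bcas1* and *Myrf* did not follow the split. *Sox10* was at 26.9, 18, 22.5 and 23.9 CPM, highest in mouse A and lowest in mouse B. *Olig2* was at 10.7, 13.9, 17.3 and 14.9 CPM, with mice B and D inside the control range of 12.3 to 16.2 CPM. *Bcas1* was at 173, 118, 126 and 132 CPM on day 13, highest in mouse A, where *Gpr17* and *Olig1* were lowest. *Myrf* was at 67.0, 43.0, 35.8 and 56.0 CPM, with its highest value in mouse A and its lowest in mouse C. The log2 fold change of *Bcas1* against control was 0.31 (95% confidence interval -0.03 to 0.66, edgeR adjusted p = 0.156).

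**Figure D3:**
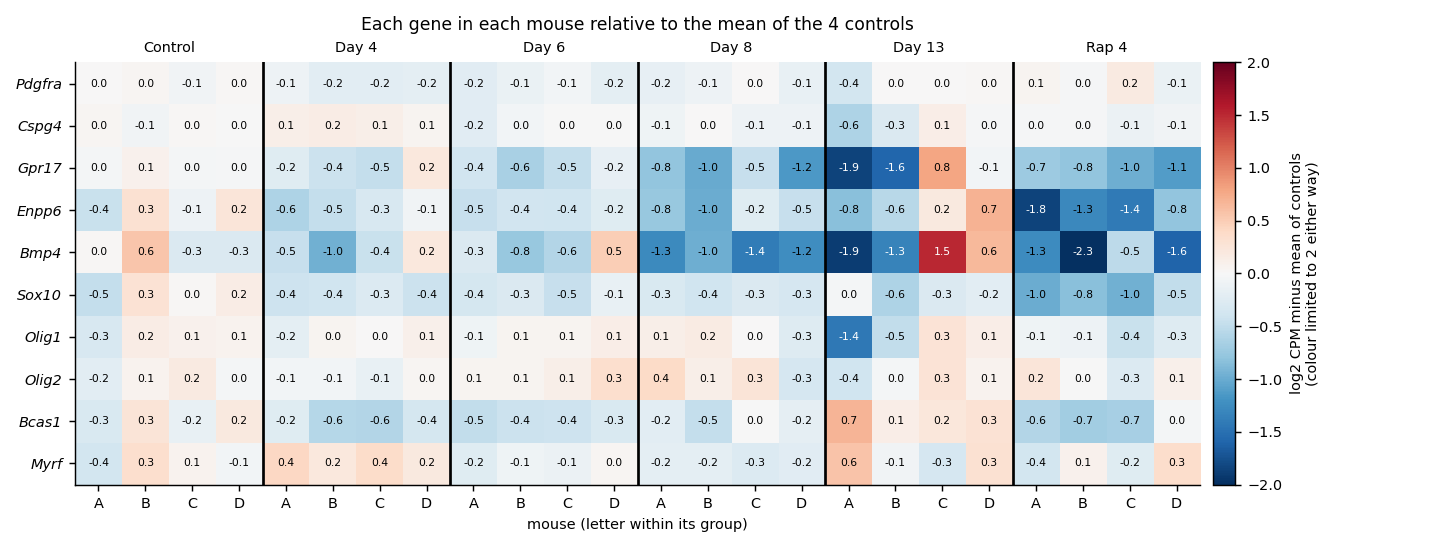
Each gene (rows) in each mouse (columns, letters within groups) as log2 CPM minus the mean of the 4 controls, with the value printed in the cell and colour limited to 2 in either direction. On day 13 *Gpr17*, *Enpp6*, *Bmp4* and *Olig1* are blue in mice A and B, while *Bcas1* and *Myrf* are red in mouse A.

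Under rapamycin *Gpr17*, *Enpp6*, *Bmp4* and *Sox10* fell below control, each with all mice below all controls. The 4 members called lower of 10 stand against 1.04% of all genes tested that were called lower, and 0 were called higher. The median log2 fold change was -0.36 over the members and 0.01 over all genes tested. *Gpr17* was at 21.8, 20.9, 18.5 and 16.7 CPM, a narrow range close to that of day 8, and fell by 0.90 on the log2 scale (standard error 0.08, edgeR adjusted p = 7.48e-05). *Enpp6* was at 3.61, 5.32, 4.87 and 7.51 CPM, its lowest mean of the 6 groups, 5.33 ± 1.63 CPM (SD, n = 4 mice). It fell by 1.31 (95% confidence interval -1.74 to -0.88, edgeR adjusted p = 0.00385), to 0.404 of the control level.

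*Bmp4* was at 0.521, 0.233, 0.895 and 0.406 CPM, or 13 to 43 counts, and fell by 1.40 (95% confidence interval -2.14 to -0.65, edgeR adjusted p = 0.0423). This call was lost in 13 of 18 alternatives, among them the fits without control A, B, C or D or without treated mouse A, B or D. *Sox10*, which drives the lineage and its myelin genes, was at 13.9, 15.5, 14.2 and 19.6 CPM, against 19.9, 33.7, 28 and 30.7 CPM in controls. It fell by 0.83 (standard error 0.15, edgeR adjusted p = 0.00838), although its highest treated mouse was close to control A. *Bcas1* was at 71.9, 66.7, 67.8 and 105 CPM and was not called (log2 fold change -0.49, edgeR adjusted p = 0.0895).

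*Pdgfra*, *Cspg4* and *Olig2* were not called under rapamycin and had narrow 95% confidence intervals around 0, of -0.11 to 0.16, -0.17 to 0.05 and -0.23 to 0.25 on the log2 scale. *Olig1* was at 28.4 to 36.3 CPM (log2 fold change -0.23, edgeR adjusted p = 0.252), and *Myrf* was at 35.0 to 57.5 CPM, the span of the controls. The mature oligodendrocyte list moved in the same direction, with 6 of 18 called lower and a summed level of 3218 to 4386 CPM. With its mean as a covariate *Gpr17* and *Enpp6* were called, while *Sox10* was at -0.37 (edgeR adjusted p = 0.0806) and *Bmp4* at -1.25 (edgeR adjusted p = 0.193). In the fit of all 24 mice *Enpp6* and *Sox10* were called, and *Gpr17* was not (edgeR adjusted p = 0.261).

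The 2 groups of day 13 share no control samples with each other, and between them 3 members were lower with rapamycin than without it. The 3 of 10 called lower compare with 11.2% of all genes tested that were called lower, and 0 were called higher. *Bcas1* was lower in all treated mice than in all untreated mice (log2 fold change -0.81, with a standard error of 0.17 and an edgeR adjusted p = 0.00605). It was called in each of its 18 alternative fits at the same fold minimum, and was not called at a fold minimum of 1. *Enpp6* was lower by a log2 fold change of -1.28 (standard error 0.34, edgeR adjusted p = 0.0181), although treated mouse D overlapped untreated mouse A. Without treated mouse A or C the adjusted p was 0.0535 or 0.0518. *Sox10* had a log2 fold change of -0.52 (edgeR adjusted p = 0.0266), just past the fold minimum, with overlapping mice. Its call was lost in 9 of 18 alternatives, among them those without untreated mouse A or D or without treated mouse A, B or C. *Gpr17* and *Bmp4*, which parted between the untreated mice, had intervals of -1.71 to 0.49 and -3.29 to 0.02. Markers of other cells were lower in the same comparison, with 5 of 9 astrocyte, 5 of 9 microglia, 4 of 8 endothelial, 2 of 10 neuron and 3 of 10 vascular leptomeningeal markers and 10 of 13 cell division genes called lower, and 1 astrocyte and 1 vascular leptomeningeal marker called higher. With rapamycin the summed level was 187 to 212 CPM for microglia, 185 to 195 CPM for endothelial cells and 38.4 to 42.5 CPM for cell division, below the 252 to 353, 216 to 247 and 58.2 to 89.9 CPM of all untreated mice, while astrocyte markers overlapped (5365 to 5465 against 5263 to 5945 CPM). The part of these lists in the members' result was not tested.

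Between consecutive days edgeR called no member. From day 4 to day 6, 0 of 10 members were called in edgeR (0.604% of all genes), 0 in DESeq2 and 3 at an unadjusted p under 0.05 (18.5% of all genes). From day 6 to day 8 the counts were 0 of 10 in edgeR (0.229% of all genes), 0 in DESeq2 and 4 at an unadjusted p under 0.05 (17.1% of all genes). From day 8 to day 13 they were 0 of 10 in edgeR (0% of all genes), 1 in DESeq2 (*Bcas1*) and 2 at an unadjusted p under 0.05 (14.1% of all genes). *Myrf* was at 60.2, 52.5, 58.4 and 51.5 CPM on day 4 and at 38.3, 42.6, 41.8 and 46.6 CPM on day 6, with no overlap. Its log2 fold change between these days was -0.41 (standard error 0.06, edgeR adjusted p = 0.00325), under the fold minimum. *Bcas1* was higher in all day 13 mice than in all day 8 mice (log2 fold change 0.55), with an edgeR adjusted p of 0.303. *Bmp4* was lower in all day 8 mice than in all day 6 mice (by -1.07 on the log2 scale, edgeR adjusted p = 0.124).

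An F test over all 6 groups and 24 mice called 3 of 10 members, where it called 41.9% of all genes tested. These were *Enpp6* (edgeR adjusted p = 0.00341), *Sox10* (0.0011) and *Bcas1* (0.000187). *Gpr17* was not called (edgeR adjusted p = 0.179). It was called without day 13 mouse A or without day 13 mouse C, where 6 members were called in each case.

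Other genes of the lineage were counted to place the members. Over all genes tested, 18.4% on day 4, 24.2% on day 6 and 28.9% on day 8 had an unadjusted p under 0.05 against control. That share was 40.5% on day 13 and 18.1% under rapamycin. Of 16 other precursor genes, all were tested in each comparison with control. *Nkx2-2*, a transcription factor of differentiating precursors, was called lower on day 4 (log2 fold change -0.76), on day 8 (-0.98) and under rapamycin (-0.99). *Rlbp1* was the only other one called lower against control, under rapamycin (-0.66), and *Megf11* was called higher on day 13 (1.06, edgeR adjusted p = 0.0475, mice overlapping). On day 6 edgeR called 0 of the 16, with 7 at an unadjusted p under 0.05. The summed level of these 16 genes was 1025 to 1096 CPM in controls, 1020 to 1051 CPM on day 8, 884 to 1127 CPM on day 13 and 945 to 1014 CPM under rapamycin, below all controls in the last group.

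Of 16 other genes of newly forming oligodendrocytes, 3 were called lower on day 8 (*Neu4*, *Lims2* and *Zfp488*), 0 by edgeR on days 4, 6 and 13 (3, 7 and 4 at an unadjusted p under 0.05), and 1 under rapamycin, *Tmem98* (log2 fold change -0.75, edgeR adjusted p = 0.00731). Between rapamycin and day 13, 3 were lower with rapamycin, led by the kinase gene *Fyn* (-0.72, edgeR adjusted p = 0.000192). Of 18 mature oligodendrocyte genes, 2 were called lower on day 4, 4 on day 8 and 6 under rapamycin, and edgeR called 0 on days 6 and 13 (13 and 2 at an unadjusted p under 0.05). *Gjb1*, a connexin of oligodendrocytes, was at -1.31 between rapamycin and day 13 (edgeR adjusted p = 0.0326). No gene of these 2 lists was called higher in a comparison with control.

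Among the comparisons with control, genes of the pathways around the members were called mostly on day 13, the one of them with the largest share of called genes. On that day 2093 of 24920 genes tested were called higher and 2008 lower, the background for the day 13 counts of the lists below. Of 20 further genes of BMP signalling, *Id1*, a target of BMP (log2 fold change 1.07, edgeR adjusted p = 0.0347), and *Grem1*, a BMP antagonist (0.57, edgeR adjusted p = 0.0392), were called higher on day 13. *Bambi* was called higher on day 4, *Nog* higher on day 6, *Id4* lower on day 8 and *Id3* lower under rapamycin, each as the only gene of the list. Of 5 further PDGF genes, the ligand gene *Pdgfb* was called higher on day 13 (0.86, edgeR adjusted p = 0.00559), and edgeR called 0 in the other comparisons with control (1 to 3 at an unadjusted p under 0.05). *Pdgfa*, the ligand of PDGFRA, was not called in any of them.

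Of 13 Notch genes, which hold precursors back from differentiation, 2 were called higher and 3 lower on day 13, and edgeR called 0 in the other comparisons with control (0 to 3 at an unadjusted p under 0.05). *Hes5* was at -2.11 (edgeR adjusted p = 0.0254), while *Hes1* was at 1.01 (0.0087) and *Dll4* at 0.94 (0.0236). Of 13 Wnt genes 11 were tested, and *Lgr5* alone was called, lower on day 13 (-0.95, edgeR adjusted p = 0.0325). Of 14 growth factor genes 12 were tested on day 13, with 4 called higher and 2 lower. *Lif* was at 5.93 (edgeR adjusted p = 0.0132, mice overlapping), *Inhba* at 1.85 (0.00727) and *Bdnf* at 1.83 (0.00157). *Erbb3*, a neuregulin receptor gene of oligodendrocytes, was called lower on day 6, day 8, day 13 and under rapamycin.

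Genes of cell division rose on day 8, where 6 of 13 were called higher, and on day 13, again with 6. Over all genes tested, 539 of 25085 were called higher on day 8 and 2093 of 24920 on day 13. *Ccnb1* was at 1.87 on day 13 (edgeR adjusted p = 0.00454), *Bub1* at 1.61 (0.027) and *Top2a* at 1.23 (0.0305). The summed level of the list was 42.9 to 53.0 CPM in controls, 58.6 to 96.8 CPM on day 8, 58.2 to 89.9 CPM on day 13 and 38.4 to 42.5 CPM under rapamycin. Of 12 tested under rapamycin, *Top2a* was called lower than control (-1.93). These genes are not particular to any cell type, and which cells carried them was not tested.

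**Figure D4:**
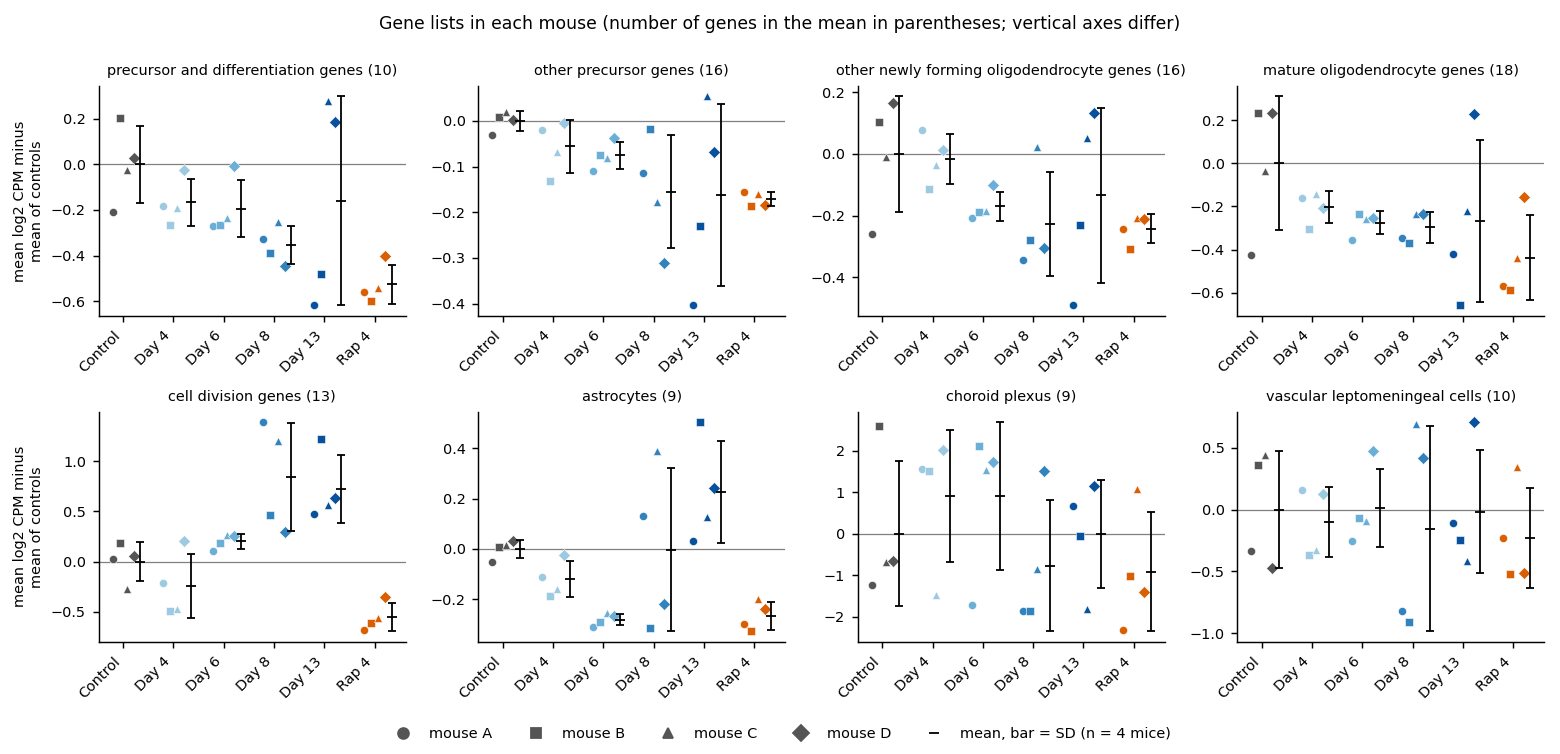
Mean log2 CPM of 8 gene lists minus the mean of the controls (vertical axes differ) in the 24 mice by group, with mean and SD (n = 4 mice). On days 4, 6 and 8 and under rapamycin the 10 precursor and differentiation genes lie below 0 in every mouse. The other precursor and the mature oligodendrocyte genes do so too, and the astrocyte genes on days 4 and 6 and under rapamycin. For the 10 genes the controls run from -0.207 to 0.205, and mice of days 4 and 6 overlap them. The choroid plexus list spreads over a wide range within each group.

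Markers of other cells that carry some members were checked. *Pdgfra* is also made by vascular leptomeningeal cells, and of 10 of their markers 2 were called higher and 2 lower on day 13. *Ogn* was at -2.59 (edgeR adjusted p = 0.00115), *Col3a1* at 2.05 (0.00221) and *Serpinf1* at 1.49 (0.00223), and on day 8 *Serpinf1* alone was called, higher. On day 4 *Lum* alone was called, lower (-0.79, edgeR adjusted p = 0.0475, mice overlapping), and edgeR called 0 of the 10 on day 6 and under rapamycin (0 and 3 at an unadjusted p under 0.05). The summed level of this list was 40.4 to 76.1 CPM in controls, 44.5 to 69.8 CPM on day 4, 51.7 to 78.1 CPM on day 6, 33.5 to 112 CPM on day 8, 61.3 to 116 CPM on day 13 and 39.8 to 72.3 CPM under rapamycin, and its part in the *Pdgfra* values was not tested. *Cspg4* is also made by pericytes, and 0 of 11 pericyte and smooth muscle markers were called in any comparison with control by edgeR, while 5 had an unadjusted p under 0.05 on day 4, 4 on day 6, 2 on day 8, 3 on day 13 and 4 under rapamycin.

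Of 9 choroid plexus markers 0 were called against control by edgeR, with 0 at an unadjusted p under 0.05. Their summed level ran from 63.1 to 1729 CPM among the controls alone, from 40.8 to 690 CPM on day 8 and from 46.1 to 548 CPM under rapamycin, so this tissue was present to a very different degree in mice of 1 group. With its mean as a covariate, *Gpr17* and *Bmp4* were called on day 8 and all 4 members under rapamycin. On day 13 *Vim* (log2 fold change 2.29, edgeR adjusted p = 0.0205) and *Gfap* (1.91, 0.00466) of 9 astrocyte markers were called higher and *Gja1* lower (-0.93, 0.0446). Of 9 microglia markers *C1qa* (0.73, 0.0387) and *Cd68* (0.72, 0.0448), of 10 neuron markers *Slc17a7* (0.73, 0.000508) and *Nefl* (0.67, 0.000612), and of 8 endothelial markers *Emcn* (0.55, 0.0107) were called higher on day 13. Under rapamycin 3 of 9 astrocyte, 2 of 8 microglia and 1 of 8 endothelial markers tested were called lower and none higher. Microglia markers summed to 187 to 212 CPM there, against 250 to 299 CPM in controls, and their part in the members' result was not tested.

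For the 4 members called against control, the genes with the most similar pattern over the 24 mice were sought among 18249 genes, by the root mean square difference of their log2 values relative to controls. For *Gpr17* they were *Lims2* (0.35), *Lcat* (0.36) and *Rlbp1* (0.38), beside a value of 0.78 for the pattern of *Gpr17* itself against a flat line. *Lims2* shares exon sequence with it. For *Enpp6* they included *Gm10863* (0.37) and *A330049N07Rik* (0.38), beside 0.73 for *Enpp6* itself. For *Bmp4* the differences were larger, 0.65 for *Nkx2-2*, 0.68 for *Sgk2* and 0.68 for *Gm45496*, beside 1.06. For *Sox10* they were smaller, 0.15 for *Gal3st1*, 0.15 for *Mcam* and 0.16 for *Kcnk13*, beside 0.46.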

How the data were processed

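Hippocampal RNA of 24 mice was sequenced, 1 library per mouse, from stranded libraries of rRNA-depleted RNA. Reads were trimmed (CutAdapt), mapped to GRCm38 (STAR) and assigned to GENCODE genes (featureCounts) by the authors, who deposited raw whole-number counts per gene. Gene names and positions come from GENCODE M21, an earlier release on the same build, which held 55144 of the 55385 identifiers.

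Groups and replicate letters were taken from the sample titles. Counts of the 8 mice of a comparison were fitted by quasi-likelihood in edgeR (version 4.0.16, R 4.3.3), with filterByExpr, TMM and Benjamini-Hochberg adjustment over all genes tested. A call needed an adjusted p below 0.05 together with a log2 fold change beyond 0.5 in either direction. The F test used all 24 mice. Whether the titles' letters pair animals is not given in the sources used here, and the main fits did not pair them. Whether mice of 1 group shared a litter is not given in the sources used here, so p-values measure the spread between these mice. No 2 libraries held identical counts. The tests were checked on simulated data.

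Named genes were all 10 members. From each other list they were the up to 3 called genes with the largest absolute change on day 13 or, where none was called there, up to 2 from another comparison. The counts beside them name some further called genes, which were chosen after their values were seen. A gene that the rule names is not reported here. The members, lists and tests were chosen with earlier results of these data known. Alternatives were DESeq2 1.42.0, other normalization, no filter, all 24 mice in 1 fit, other call rules, replicate letter or number series as a block, covariates, and each mouse left out. GC correction and thinning were added after seeing the data.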

Additional observations from a re-analysis of the deposited data

Results flagged for a closer look

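In 60 sets of 4 mice (10 genes in 6 groups), a mouse was marked when its gap to the nearest mouse was above Dixon's 95% critical share of the whole range, which chance gives in about 1 of 20 sets. This marked 4 mice. *Pdgfra* was at 57.1 CPM in day 13 mouse A, with a gap of 0.96 of the range below the other 3, and at 68.7 CPM in day 4 mouse A, the highest of its group (0.83). *Gpr17* was at 38.6 CPM in control B (0.848), a small absolute step above the other controls. *Bcas1* was at 105 CPM in Tsc1-Cre+-Rap 4 mouse D (0.864), above the other treated mice.

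Groups differed directly for *Enpp6*, *Sox10* and *Bcas1* between rapamycin and day 13 in edgeR's test, by log2 fold changes of -1.28, -0.52 and -0.81. Between day 6 and day 4, *Myrf* differed by -0.41 and *Cspg4* by -0.20, both with an edgeR adjusted p under 0.05 and under the fold minimum of a call.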

How the results depend on the processing

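Among the members' fold changes with an edgeR adjusted p under 0.05, none reversed its direction. The direction of the other fold changes was not followed through the alternatives. On day 13 against control no member was called in any alternative. The counts of members called were 0 on day 4, 0 on day 6, 3 on day 8, 4 under rapamycin and 3 between rapamycin and day 13. With no fold-change minimum 2 were called on day 4 (4.16% of all genes), 3 on day 6 (10.1%) and 2 between days 6 and 4 (4.14%). At a minimum of 1 the count was 1 on day 8, 2 under rapamycin and 1 between rapamycin and day 13. With all 24 mice in 1 fit it was 0 on day 8, 2 under rapamycin and 1 between days 13 and 8. With the mature oligodendrocyte list as a covariate it was 1 on day 8 and 2 under rapamycin, and with the choroid plexus list it was 1 on day 4. The GC correction gave 1 on day 4 (*Sox10*). DESeq2 gave 1 between days 13 and 8 and 5 in the F test's place over 6 groups, where edgeR gave 3. The cause of these shifts was not tested. The share of all genes called is given here only for the main fits and for those with no fold-change minimum. For the other alternatives, the replicate block included, whether a changed count is particular to the members therefore cannot be read.

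Leaving out each mouse in turn gave 0 to 3 called on day 4, 0 to 2 on day 6, 2 to 4 on day 8, 3 to 4 under rapamycin, 1 to 3 between rapamycin and day 13 and 3 to 6 in the F test. The lower count between rapamycin and day 13 came without Tsc1-Cre+-Rap 4 mouse A or C. The share of all genes called in the fits with a mouse left out is not given here. Whether a changed count is particular to the members therefore cannot be read from it.

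Whether the replicate letter pairs animals is not given in the sources used here, and weak correlations between mice cannot settle it. Deviations of same-letter mice correlated between -0.24 and 0.133, and with the letter as a replicate block 2 members were called on day 8 and 3 under rapamycin. *Bmp4* under rapamycin was then at -1.42 (edgeR adjusted p = 0.0559) and *Enpp6* on day 8 at -0.63 (0.0656). The GC correction was not run for the F test. Depth limits *Bmp4* most, with 13 to 132 counts per mouse.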
